A study of Arabidopsis thaliana with 8 samples.

Results

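The *MIR165* and *MIR166* genes of *Arabidopsis thaliana* encode the miRNAs miR165 and miR166, and all 9 annotated genes of this family were taken (*MIR165a*, *MIR165b* and *MIR166a* to *MIR166g*), out of 326 annotated *MIR* genes. Each gene was given every 100-bp window that it overlaps, which gave 20 windows of 885 for all *MIR* genes and of 1196681 in the data. sRNA libraries had been made from 18-day-old seedlings, grown at 23 °C per the labels, to follow small RNAs in mutants of *HOT3*, which encodes the translation initiation factor eIF5B1. There were 8 libraries, 2 for each of 4 genotypes. WT was the accession Col-0, *hot3-2* and *hot3-3* each carry a T-DNA insertion in *HOT3*, and HOT3-EYFP carries a fusion of HOT3 to EYFP under the *HOT3* promoter in the *hot3-2* background. The plants of HOT3-EYFP therefore hold the *hot3-2* insertion as well as the transgene. The replicates of a genotype are described as independent in the study, and neither it nor the labels say whether they came from separate cultures. The p-values therefore measure only the spread between these libraries, which may be technical. Seedlings hold many tissues, and in such samples fewer cells of a type and less RNA per cell cannot be told apart.

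miR165 and miR166 are made from hairpin precursors by DCL1, a Dicer enzyme, which releases a duplex of a 5p strand and a 3p strand. The 3p strand is the miRNA, which is bound by the Argonautes AGO1 and AGO10. In AGO1 it directs cleavage of the mRNAs of class III homeodomain leucine zipper (HD-ZIP III) transcription factors. These factors set the upper side of the leaf and pattern the vasculature and the meristem, and miR165 and miR166 keep them from the lower side. The 5p strand, also called the passenger strand or miRNA*, is mostly degraded.

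The mature strands are shown because the reads of most genes of the family cannot be told apart by sequence. The seed, bases 2 to 8 from the 5′ end, is in capitals, and the sequences are from the RefSeq annotation of TAIR10.1.
miR165 (3p of MIR165a and MIR165b): uCGGACCAggcuucauccccc
miR166 (3p of MIR166a to MIR166g): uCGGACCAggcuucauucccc
miR165a-5p: gGAAUGUUgucuggaucgagg
miR166a-5p and miR166b-5p: gGACUGUUgucuggcucgagg
miR166e-5p: gGAAUGUUgucuggcacgagg
miR165 and miR166 share the seed and differ at 1 base, C17U, counted from the 5′ end with the base of miR165 first. The 21 bases of miR165 matched the genome at 2 places and those of miR166 at 7, and all of these lie in the genes of the family. A 21-nt read of the mature 3p strand therefore fits 2 or 7 loci equally well. How such reads were placed for the window counts is not given in the sources used here, where a placement is stated only for an alignment to 45S rDNA, so a value for 1 gene is what the deposited placement assigned to it, whereas the family sum does not depend on the choice so long as each read was counted once. The 5p strands of *MIR165a* and *MIR166e* matched only their own gene, and that of *MIR166a* and *MIR166b* matched these 2 genes.

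The precursors of the genes with the most reads in each group show how far apart the strands lie. The annotated mature strands are in capitals, the 5p strand first and the 3p strand second, written as DNA on the strand of the gene.
MIR165a: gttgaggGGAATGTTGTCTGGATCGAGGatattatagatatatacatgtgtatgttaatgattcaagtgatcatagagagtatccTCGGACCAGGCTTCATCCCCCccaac
MIR166a: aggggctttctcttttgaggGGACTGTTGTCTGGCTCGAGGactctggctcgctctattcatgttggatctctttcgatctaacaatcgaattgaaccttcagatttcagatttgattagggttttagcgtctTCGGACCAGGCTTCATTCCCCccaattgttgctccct
In TAIR10.1, *MIR165a* (AT1G01183) lies at chr1:78927-79037 on the minus strand and *MIR166a* (AT2G46685) at chr2:19176108-19176277 on the plus strand. *MIR165b* (AT4G00885) lies at chr4:369831-370012 on the minus strand, and *MIR166b* (AT3G61897) at chr3:22922206-22922325 on the plus strand. The other 5 genes are on chromosome 5. These are *MIR166c* (AT5G08712) at chr5:2838635-2838773, *MIR166d* (AT5G08717) at chr5:2840622-2840734, *MIR166e* (AT5G41905) at chr5:16775520-16775662, *MIR166f* (AT5G43603) at chr5:17516301-17516405 and *MIR166g* (AT5G63715) at chr5:25504798-25504919, with *MIR166e* on the minus strand and the others on the plus strand. In 7 of the 9 genes the 2 arms fall into different windows, and in *MIR166f* and *MIR166g* they do not.

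The libraries held 6793502 to 8210328 counts over 18 nt to 26 nt, of which 816672 to 999484 were 21 nt long. Windows of 45S rDNA took 33.7% to 52.2% of the counts, lowest in *hot3-2* and highest in HOT3-EYFP. Small RNAs at *HOT3* itself numbered 17 to 29 in the 6 libraries without the transgene and 535 and 471 in HOT3-EYFP. These are small RNAs and not mRNA, so they check the transgene but not the insertions. None of these 8 libraries holds mRNA to check tissue markers, and the RNA-seq of the study was not used here.

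The family was lower in both *hot3* alleles than in WT, and it was also lower in the complementation line. The 21-nt count of the family was 26168 and 27803 for the 2 libraries of WT, 12811 and 12913 for *hot3-2*, 10415 and 10851 for *hot3-3*, and 12326 and 10442 for HOT3-EYFP. Both WT libraries were thus above all 6 others. In these raw counts, not scaled for depth, the libraries of HOT3-EYFP lay among those of the alleles. In counts per 1000000 reads (CPM), on the 21-nt library size scaled by TMM, the level was 30217 ± 109 (SD, n = 2) in WT. It was 14187 ± 64.6 (SD, n = 2) for HOT3-EYFP, 12017 ± 306 (SD, n = 2) for *hot3-2* and 10514 ± 218 (SD, n = 2) for *hot3-3*. On this scale both libraries of HOT3-EYFP (14141 and 14233) lay above every library of the alleles (10360 to 12233).

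**Figure D1:**
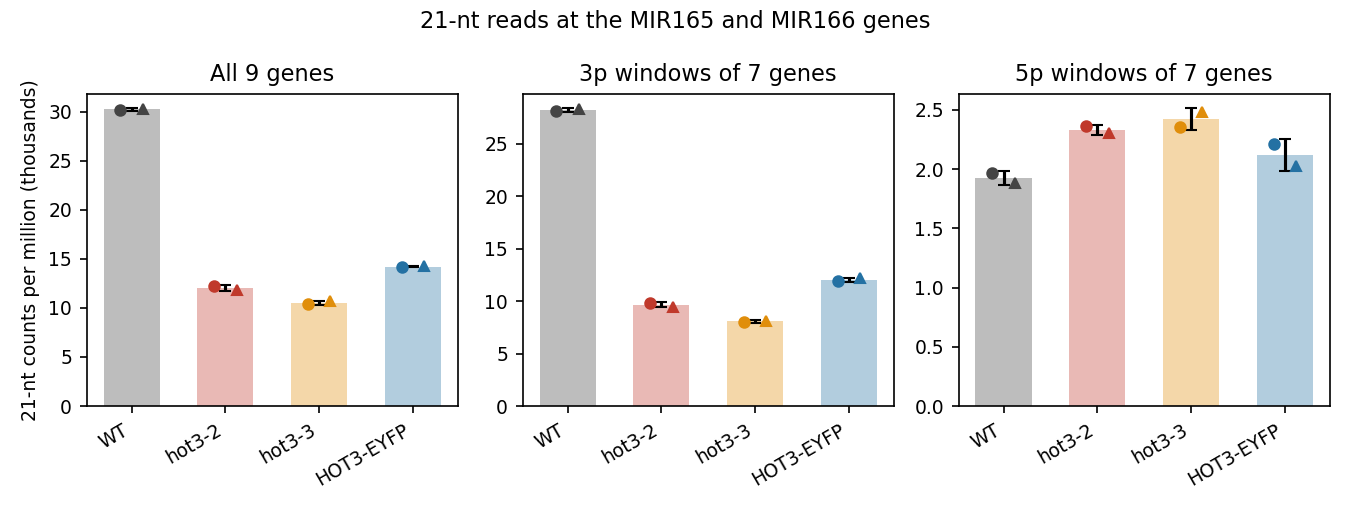
CPM of 21-nt reads, in units of 1000, in the 4 genotypes for the windows of all 9 genes (left), for the 3p windows of the 7 genes whose arms lie in different windows (middle) and for their 5p windows (right). Bars are means, error bars are the SD of 2 libraries, circles and triangles are libraries 1 and 2, and the vertical scales differ. The family sum and the 3p windows were highest in WT. The 5p windows were lowest in WT on this scaling, though HOT3-EYFP did not differ from WT there (edgeR adjusted p = 0.253).

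Against WT, the family sum changed by -1.32 on the log2 scale in *hot3-2* (SE 0.023, edgeR quasi-likelihood test, Benjamini-Hochberg adjusted p = 8.03e-11). The change was -1.52 for *hot3-3* (SE 0.0231, adjusted p = 2.51e-11) and -1.07 for HOT3-EYFP (SE 0.0229, adjusted p = 1.65e-09). The limits of a call were a fold of 2 or more together with an adjusted p under 0.01, and all 3 changes passed them. Over all features of the table of families and other windows, 3.23% were called lower in *hot3-2*, 2.05% for *hot3-3* and 0.342% for HOT3-EYFP. These 3 comparisons share the WT libraries. With the nuclear counts outside rDNA as library size, the change in HOT3-EYFP was -0.99 and so missed the fold limit.

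In the order of levels the neighbours below WT lay close to each other. HOT3-EYFP was above *hot3-2* by 0.26 on the log2 scale (SE 0.0226, edgeR adjusted p = 1.11e-05), a difference below the fold limit. With the total count of each library as library size this difference turned to -0.25, so the order of the complementation line and its parent mutant depends on the scaling. Its adjusted p was 0.518 without a filter on low counts, and with the stricter filter of at least 20 counts in at least 4 libraries the difference was 0.10 (adjusted p = 0.07). *hot3-3* was below *hot3-2* by a log2 difference of -0.20 (SE 0.0226, edgeR adjusted p = 4.2e-04). The adjusted p of the last difference was 0.193 with DESeq2, 1 without a filter, 0.0599 with the stricter filter and 0.215 without *hot3-3* replicate 1. The alleles together differed from the 4 libraries with functional HOT3 (WT and HOT3-EYFP) by -0.89 (edgeR adjusted p = 5.9e-11), also short of the fold limit.

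*MIR166a* held the most reads. Its 21-nt counts were 15825 and 17039 for WT, 6247 and 5730 for *hot3-2*, 4754 and 5085 for *hot3-3*, and 7038 and 6464 for HOT3-EYFP. WT was far above the rest and HOT3-EYFP lay above both alleles. The log2 change against WT was -1.72 ± 0.0619 (SE) for *hot3-2*, -1.92 ± 0.0623 for *hot3-3* and -1.12 ± 0.0609 for HOT3-EYFP. It was higher in HOT3-EYFP than in *hot3-2* by 0.59 (edgeR adjusted p = 6.47e-05).

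As placed in the deposited counts, *MIR165b* had the steepest change of the genes with over 100 counts in every library. Its 21-nt counts were 1906 and 2315 for WT, 518 and 460 for *hot3-2*, 349 and 299 for *hot3-3*, and 410 and 222 for HOT3-EYFP. The log2 change was -2.37 ± 0.193 (SE) for *hot3-2*, -2.88 ± 0.198 for *hot3-3* and -2.61 ± 0.196 for HOT3-EYFP. HOT3-EYFP and *hot3-2* overlapped in CPM, at 386 ± 119 (SD, n = 2) and 458 ± 52.5 (SD, n = 2), and differed by -0.24 (edgeR adjusted p = 0.439).

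*MIR165a* carries the same miR165 as *MIR165b* and changed less. Its 21-nt counts were 3860 and 3752 for WT, 3100 and 3188 for *hot3-2*, 2438 and 2508 for *hot3-3*, and 1744 and 1543 for HOT3-EYFP. Here the complementation line was the lowest of the 4 genotypes. The log2 change was -0.54 ± 0.0528 (SE) for *hot3-2*, -0.80 ± 0.053 for *hot3-3* and -1.06 ± 0.0533 for HOT3-EYFP. HOT3-EYFP was below *hot3-2* by a log2 difference of -0.52 (edgeR adjusted p = 6.56e-05), and *hot3-3* was below *hot3-2* by -0.26 (adjusted p = 0.0327). The split of the shared 3p reads between *MIR165a* and *MIR165b* rests on their placement. Summed over both genes, the level was 6626 ± 21.6 CPM (SD, n = 2) in WT and 3394 ± 85.6 for *hot3-2*. It was 2766 ± 8.81 for *hot3-3* and 2438 ± 46.3 for HOT3-EYFP.

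*MIR166e* was the second most abundant gene of the miR166 group. Its 21-nt counts were 4268 and 4383 for WT, 2886 and 3391 for *hot3-2*, 2749 and 2861 for *hot3-3*, and 2913 and 2102 for HOT3-EYFP. WT was above all others, which overlapped among themselves. The log2 change was -0.73 ± 0.076 (SE) for *hot3-2*, -0.80 ± 0.0761 for *hot3-3* and -0.64 ± 0.0759 for HOT3-EYFP, all short of the fold limit.

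The other 5 genes had at most 230 counts of 21 nt in any library. *MIR166c* had 230 and 192 for WT, 55 and 74 for *hot3-2*, 33 and 50 for *hot3-3*, and 185 and 22 for HOT3-EYFP. The 2 libraries of HOT3-EYFP thus lay at the levels of WT and of the alleles. *MIR166b* had 5 to 65 counts with the genotypes overlapping, and *MIR166f* had 52 and 58 in WT against 0 to 27 elsewhere. *MIR166d* was at 0 in 6 libraries and had 22 counts in *hot3-3* replicate 1 and 19 in HOT3-EYFP replicate 2. *MIR166g* was also at 0 in 6 libraries, with 14 counts in WT replicate 1 and 5 in *hot3-3* replicate 2. A count of 0 allows up to 3 counts, and such limits cover counting error only.

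**Figure D2:**
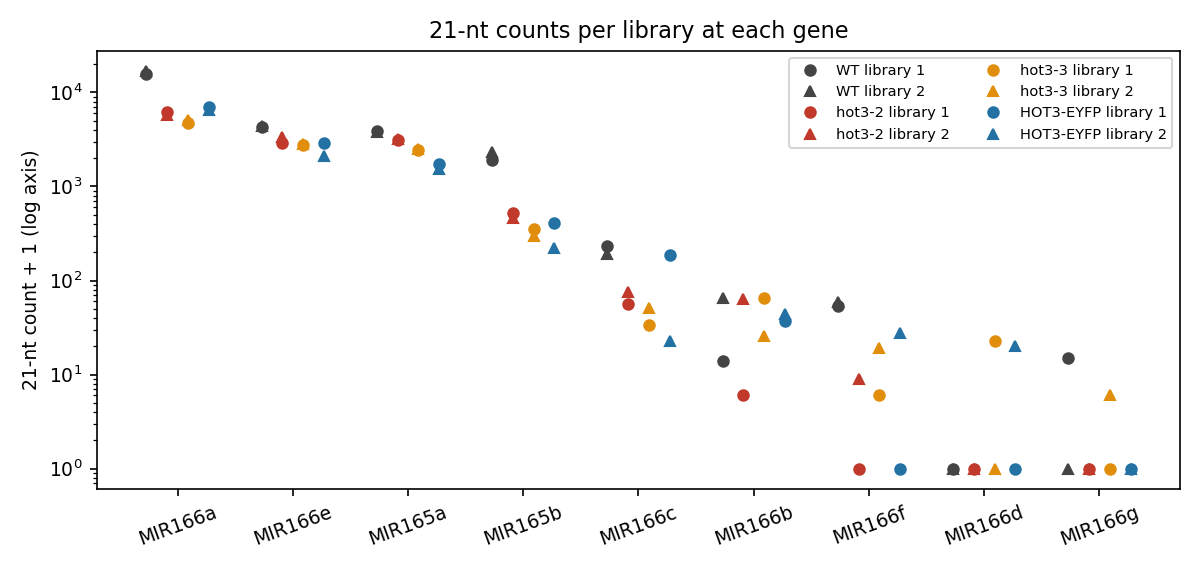
The 21-nt count plus 1, on a log axis, of each gene in each of the 8 libraries, with genes ordered by level. The 4 genes on the left had 222 to 17039 counts and were highest in WT, while replicate libraries of the 5 genes on the right often lay far apart.

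Of the 9 genes, 8 passed the filter of at least 10 counts in at least 2 libraries at 21 nt, all but *MIR166g*. *MIR166a* and *MIR165b* were called lower in *hot3-2* and in *hot3-3*, so 2 of 8 in each, where 3.35% and 2.15% of all features tested were called lower. In HOT3-EYFP, *MIR166a*, *MIR165b* and *MIR165a* were called lower, 3 of 8 against 0.4% of all features. The count was 2 with nuclear counts outside rDNA as library size and 2 without WT replicate 1, and 4 without a filter or without HOT3-EYFP replicate 1. For the alleles against functional HOT3, 2 of 8 were called lower, against 5.46%. With only an adjusted p under 0.05 asked for, 4 genes were lower in *hot3-2*, 5 for *hot3-3* and 4 for HOT3-EYFP, where 7.65%, 6.24% and 1.47% of all features were. Under this rule 5 genes were lower in the alleles than with functional HOT3, against 12.1% of all features. In HOT3-EYFP against *hot3-2*, *MIR165a* was lower and *MIR166a* was higher, where 7.23% of features were lower and 10.6% higher. In *hot3-3* against *hot3-2*, *MIR165a* was lower, where 0.379% of features were. The median log2 change of the 8 genes was -1.22 for *hot3-2*, -1.36 for *hot3-3* and -1.01 for HOT3-EYFP, and the medians over all 4746 features were 0.029, 0.0022 and 0.0018. The 8 genes include *MIR166d*, which had no 21-nt reads in WT or *hot3-2*, and *MIR166b* and *MIR166f*, whose counts were low. Their changes are therefore poorly measured.

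The 2 arms of the hairpins moved apart. This division was made after the values had been seen. Summed over the 7 genes, the 21-nt reads in the 3p windows numbered 24397 and 26015 for WT, 10338 and 10386 for *hot3-2*, 8043 and 8300 for *hot3-3*, and 10397 and 8931 for HOT3-EYFP. The 5p windows held 1705 and 1730 for WT, 2473 and 2519 for *hot3-2*, 2367 and 2528 for *hot3-3*, and 1929 and 1484 for HOT3-EYFP. In the alleles the guide strand fell while the counts of the passenger strand were above those of both WT libraries. Most of the 5p difference lay at *MIR165a*, whose 5p window had a mean CPM of 540 in WT, 829 in *hot3-2* and 806 in *hot3-3*. The 5p window of *MIR166a* had 1149, 1227 and 1276 in that order, and that of *MIR166e* had 219, 242 and 285.

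The 3p sum changed by -1.54 (SE 0.0247, edgeR adjusted p = 2.22e-10) for *hot3-2*, by -1.80 (SE 0.0249, adjusted p = 5.37e-11) for *hot3-3* and by -1.22 (SE 0.0245, adjusted p = 3.83e-09) for HOT3-EYFP. The 5p sum rose by 0.28 (SE 0.0601, adjusted p = 0.0103) for *hot3-2* and by 0.33 (SE 0.0602, adjusted p = 0.00426) for *hot3-3*, below the fold limit. In HOT3-EYFP its change was 0.15 (SE 0.0602, adjusted p = 0.253), which turned to -0.13 with the total count as library size. In both alleles the arms kept opposite signs under all 4 scalings tried. As a share of both arms, which no scaling of the libraries changes, the 5p windows made up 6.38% ± 0.21 (SD, n = 2) in WT, 19.4% ± 0.153 for *hot3-2*, 23.0% ± 0.431 for *hot3-3* and 14.9% ± 0.991 for HOT3-EYFP. No genotype overlapped another in this share.

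**Figure D3:**
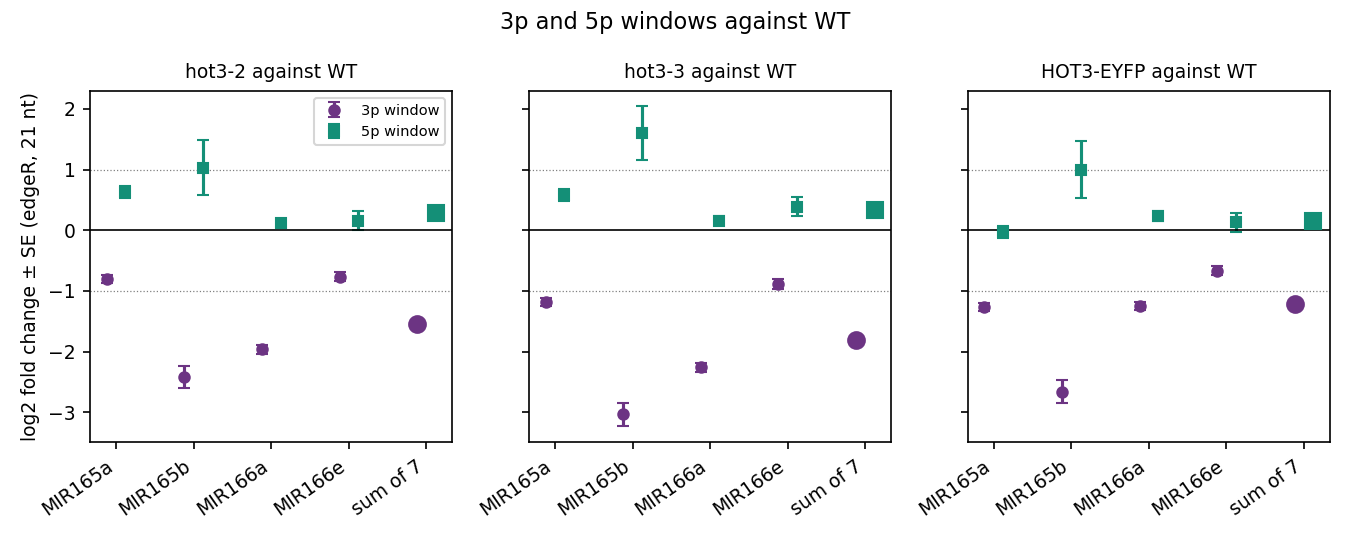
Log2 fold change against WT with its SE from edgeR at 21 nt, for the 3p windows (circles) and 5p windows (squares) of the 4 most abundant genes and for the sums over 7 genes (large symbols), with 1 panel per genotype. Dotted lines mark a fold of 2. Every 3p window plotted was below 0, from -0.66 to -3.03, and every 5p window was above 0 except that of *MIR165a* in HOT3-EYFP, at -0.02.

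In *MIR165a*, whose 5p strand matches no other place in the genome, the 5p window had 495 and 468 for WT, 859 and 916 for *hot3-2*, 789 and 841 for *hot3-3*, and 461 and 377 for HOT3-EYFP. It rose in *hot3-2* by 0.64 (SE 0.0962, edgeR adjusted p = 0.00118) and in *hot3-3* by 0.59 (SE 0.0962, adjusted p = 0.0024), and in HOT3-EYFP the change was -0.02 (adjusted p = 0.949). Its 3p window had 3365 and 3284 for WT, 2241 and 2272 for *hot3-2*, 1649 and 1667 for *hot3-3*, and 1283 and 1166 for HOT3-EYFP. The value of the whole gene in the alleles was therefore the sum of a 3p window that fell and a 5p window that rose.

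In *MIR166a* the 3p window had 14828 and 15983 for WT, 4905 and 4448 for *hot3-2*, 3519 and 3738 for *hot3-3*, and 5832 and 5533 for HOT3-EYFP. Its log2 change was -1.96 ± 0.0716 (SE), -2.26 ± 0.0723 and -1.25 ± 0.0701 in that order. The 5p window had 997 and 1056 for WT, 1342 and 1282 for *hot3-2*, 1235 and 1347 for *hot3-3*, and 1206 and 931 for HOT3-EYFP, and none of its 3 changes passed an adjusted p of 0.05. The 5p share of *MIR166a* was 6.25% ± 0.0726 (SD, n = 2) in WT, 21.9% ± 0.63 for *hot3-2*, 26.2% ± 0.362 for *hot3-3* and 15.8% ± 1.93 for HOT3-EYFP. In *MIR166e*, whose 5p strand is also unique, that share was 4.52% ± 0.298 in WT, 8.27% ± 0.31 for *hot3-2*, 10.3% ± 0.114 for *hot3-3* and 7.57% ± 0.214 for HOT3-EYFP.

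Among single windows of the family, the 3p windows of *MIR166a* and *MIR165b* were called lower in *hot3-2*, and those of *MIR165a*, *MIR166a* and *MIR165b* in *hot3-3* and in HOT3-EYFP. Of all windows and features in that table, 3.37%, 2.25% and 0.437% were called lower. At an adjusted p under 0.05 the 5p window of *MIR165a* was higher in *hot3-2*, where 6.76% of features were. In *hot3-3* the 5p windows of *MIR165a* and *MIR165b* were higher, where 6.11% were. The 5p strand of *MIR165b* is not annotated and was placed by its closest match to an annotated one, with 1 differing base. Its window had 9 and 12 reads in WT and 37 and 35 in *hot3-3*.

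The family was mostly 21 nt long, and this held in all genotypes. Of its reads of 18 nt to 26 nt, 83.5% ± 0.134 (SD, n = 2) were 21 nt in WT, 81.9% ± 0.71 for *hot3-2*, 81.5% ± 0.354 for *hot3-3* and 82.2% ± 0.504 for HOT3-EYFP. The 22-nt class made up 8.28% ± 0.219, 6.80% ± 0.466, 6.81% ± 0.601 and 6.92% ± 0.382 in that order. The 19-nt class was smaller in WT, at 1.68% ± 0.0729, than in *hot3-2* (3.69% ± 0.115), *hot3-3* (3.90% ± 0.207) and HOT3-EYFP (2.94% ± 0.127).

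Both neighbouring lengths fell with the 21-nt class. At 20 nt the family sum changed by -1.07 for *hot3-2* (edgeR adjusted p = 5.44e-05), -1.26 for *hot3-3* (adjusted p = 3.5e-05) and -1.07 for HOT3-EYFP (adjusted p = 8.65e-04). At 22 nt it changed by -1.67 (adjusted p = 1.21e-09), -1.79 (adjusted p = 1.16e-09) and -1.25 (adjusted p = 1.1e-07). At 20 nt, 5 genes passed the filter and *MIR166a* and *MIR165b* were called lower in each genotype, where 3.06%, 1.83% and 0.239% of features were. At 22 nt, 6 genes passed. *MIR166f* passed only through WT, with 18 and 27 reads of this length there and 0 to 9 in the other libraries, and is left out of the counts of calls. Of the other 5, *MIR166a*, *MIR165b* and *MIR166e* were called lower in *hot3-2* and in *hot3-3*, and *MIR165b* and *MIR166e* in HOT3-EYFP, where 2.58%, 1.24% and 0.224% of features were.

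The 22-nt reads are of interest because the base after the mature strand, in capitals here, splits genes that share their 21-nt sequence.
MIR165a only: tcggaccaggcttcatcccccC
MIR165b only: tcggaccaggcttcatcccccT
MIR166a, MIR166b, MIR166c and MIR166d: tcggaccaggcttcattccccC
MIR166e, MIR166f and MIR166g: tcggaccaggcttcattccccT
The window counts give neither the first nor the last base of a read. A 22-nt read may also hold the base before the mature strand. Neither these forms nor a base added after cutting was therefore counted as such.

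In the 3p window of *MIR165b* the 22-nt count was 412 and 482 for WT, 214 and 187 for *hot3-2*, 145 and 122 for *hot3-3*, and 129 and 78 for HOT3-EYFP. It fell less than the 21-nt count there, so the ratio of 22 nt to 21 nt was 0.217 and 0.209 for WT, 0.432 and 0.433 for *hot3-2*, 0.465 and 0.462 for *hot3-3*, and 0.339 and 0.366 for HOT3-EYFP. In the 3p window of *MIR166e* the 22-nt count was 1542 and 1489 for WT, 547 and 533 for *hot3-2*, 461 and 412 for *hot3-3*, and 637 and 457 for HOT3-EYFP. There the ratio went the other way, from 0.379 and 0.355 for WT to 0.207 and 0.171 for *hot3-2*, 0.187 and 0.16 for *hot3-3*, and 0.237 and 0.235 for HOT3-EYFP. At *MIR165a* the ratio was 0.00836 to 0.0223 over all libraries, and at *MIR166a* 0.0349 to 0.0608. *MIR165b* and *MIR166e*, whose next base is T, held most of the 22-nt reads, as placed in the deposited counts. At these 2 the ratio shifted in opposite directions in every library outside WT. The 21-nt counts in these ratios rest on the placement of reads that loci share. Over all windows of the *MIR165* genes the ratio was 0.0914 and 0.0941 for WT and 0.0652 to 0.0840 elsewhere, so it did not rise. Over the *MIR166* genes it was 0.104 and 0.0981 for WT and 0.0819 to 0.0943 elsewhere. Neither the placement nor a part of the next base in the shifts at *MIR165b* and *MIR166e* was tested.

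**Figure D4:**
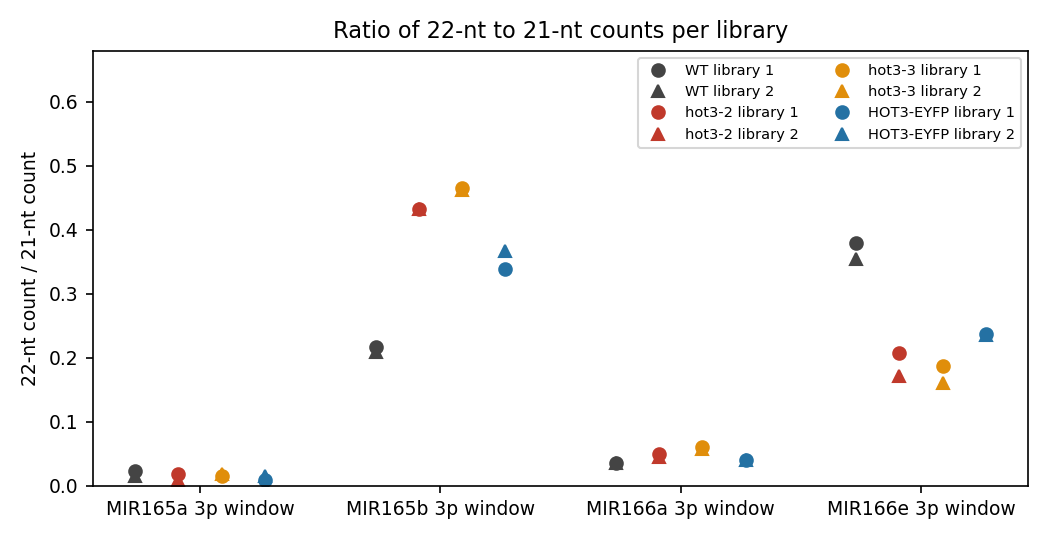
Ratio of the 22-nt count to the 21-nt count in the 3p window of 4 genes, for each of the 8 libraries. The ratio at *MIR165b* was lowest in WT (0.209 and 0.217) and that at *MIR166e* was highest in WT (0.355 and 0.379), while *MIR165a* and *MIR166a* stayed below 0.0609.

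For 4 shares, the libraries of the alleles (4) and of WT with HOT3-EYFP (4) were compared in an exact, two-sided permutation test, with p adjusted over these 4. The *MIR165* genes made up 21.9% ± 0.151 (SD, n = 2) of the 21-nt counts of the family in WT, 28.2% ± 0.00654 for *hot3-2*, 26.3% ± 0.63 for *hot3-3* and 17.2% ± 0.405 for HOT3-EYFP. The alleles were higher by 7.72 percentage points (exact p = 0.0286, adjusted p = 0.0571), with all 4 libraries above the other 4. With only windows centered in the gene the difference was 4.32 points (exact p = 0.114). That setting drops the 5p window of *MIR165a* and keeps both arms of *MIR166a* and *MIR166e*. The family made up 11.04% ± 0.012 of the 21-nt counts of all annotated *MIR* genes in WT, 5.05% ± 0.224 for *hot3-2*, 4.73% ± 0.0537 for *hot3-3* and 6.88% ± 0.0928 for HOT3-EYFP. The difference was -4.07 percentage points (exact p = 0.0286, adjusted p = 0.0571), again without overlap. A p of 0.0286 is the smallest that 4 against 4 libraries allow, and neither share passed after adjustment. The test treats the 2 libraries of a genotype as independent. With genotypes as the unit, 2 against 2, the smallest possible p would be 0.333. Of the counts of 20 nt to 22 nt, the 22-nt share differed by -0.67 percentage points (exact p = 0.2, adjusted p = 0.267) and the 20-nt share by 0.0878 (exact p = 0.8286, adjusted p = 0.8286). The difference in the 22-nt share was -0.409 without WT replicate 1 and -0.42 with only windows centered in the gene, and it ranged from -0.978 to -0.409 with each library left out. In the 22-nt share, 8.49% ± 0.223 for WT stood against 7.23% ± 0.403 for HOT3-EYFP, and this difference was not tested.

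The mRNAs that the family acts on gave few small RNAs. The HD-ZIP III genes *PHB*, *PHV*, *REV*, *ATHB8* and *ATHB15* each had 0 to 10 reads of 21 nt in a library and none passed the filter, so secondary small RNAs from them were not measurable at this depth. Their sites are shown because they carry the base at which miR165 and miR166 differ. Capitals pair with miR166 by Watson-Crick rules, and the sites are written as DNA on the mRNA strand.
PHB and PHV: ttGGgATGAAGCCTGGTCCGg
REV and ATHB8: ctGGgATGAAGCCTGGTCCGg
ATHB15: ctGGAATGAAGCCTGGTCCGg
All 5 sites lie in coding sequence and span 2 exons. By Watson-Crick rules, which count a G:U pair as a mismatch, *PHB*, *PHV*, *REV* and *ATHB8* had 4 mismatches to miR166 and 3 to miR165. *ATHB15* had 3 to miR166 and 4 to miR165 by the same rules.

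A list of 33 genes around leaf polarity and miRNA action was also counted, and 8 passed the filter at 21 nt. These were *AGO1*, *DCL1*, *ARF4*, the *TAS3* genes *TAS3A*, *TAS3B* and *TAS3C*, which give rise to tasiR-ARFs that act on *ARF3* and *ARF4*, and *MIR390A* and *MIR390B*, whose miRNA triggers them. *AGO1* had 52 to 89 reads per library. *TAS3A* had 2943 and 3207 for WT, 3579 and 3606 for *hot3-2*, 3202 and 3156 for *hot3-3*, and 2068 and 1889 for HOT3-EYFP, and its change was -0.47 (edgeR adjusted p = 3.33e-04) in HOT3-EYFP. *MIR390B* had 201 and 184 in WT against 89 to 133 in the other libraries.

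At an adjusted p under 0.05, *MIR390A* (-0.59) and *MIR390B* (-0.89) of the list were lower and *TAS3B* (1.21) was higher in *hot3-2*. Of all features, 7.73% were lower and 6.75% higher. In *hot3-3*, *MIR390B* (-1.15) was lower and *TAS3B* (0.99) higher, where 6.54% of features were lower and 6.04% higher. In HOT3-EYFP, *TAS3A* (-0.47) and *TAS3C* (-0.95) were lower, where 1.5% were lower. None of the list was higher there, where 3.08% of features were, and all 8 fitted changes were negative. The median change of the 8 genes was -0.50, -0.35 and -0.52 in the order of genotypes, beside medians over all 4799 features of 0.029, 0.0012 and 0.009.

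Among the 132 *MIR* families tested, the change of this family ranked 13th from the lowest in *hot3-2*, 6th in *hot3-3* and 15th in HOT3-EYFP. The median over these families was 0.26, 0.13 and -0.13 in that order. In *hot3-2* 11 families were called lower and 18 higher, in *hot3-3* 10 and 15, and in HOT3-EYFP 6 and 0. Of all features in the table of families and other windows, 3.23%, 2.05% and 0.342% were called lower. The share called higher is not given here, so the families called higher have no background beside them.

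Of 90 other *MIR* genes with a mean of at least 50 reads of 21 nt, *MIR398a*, *MIR396b* and *MIR156a* had the pattern most like that of the family sum (Pearson r of log2(CPM + 1) of 0.97, 0.97 and 0.96 over 8 libraries). The libraries fall into the 4 genotypes, so these values describe the profile and carry no test. *MIR396b*, whose miRNA acts on growth-regulating factors, had 10738 and 10402 CPM in WT, 5339 and 4873 for *hot3-2*, 3938 and 3787 for *hot3-3*, and 4806 and 4437 for HOT3-EYFP. *MIR398a*, whose miRNA acts on copper superoxide dismutases, had 263 and 312 CPM in WT and 112 to 166.3 in the others. *MIR156a*, whose miRNA acts on SPL factors, had 280 and 234 CPM in WT and 93.4 to 164 in the others.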

How the data were processed

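The authors cut RNA of 18 to 40 nt from a gel, trimmed the reads with cutadapt and ran their own pipeline, pRNASeqTools. The counts they deposited are raw numbers of reads in 100-bp windows, without strand, with 9 columns for lengths of 18 nt to 26 nt. Cutadapt 4.2, Bowtie and featureCounts 2.0.3 are among the tools in the submitters' processing notes, without their roles. The genome build and the placement of reads with several matches are not given in the sources used here for the window counts. For a separate alignment to 45S rDNA, not used here, the methods name ShortStack, with reads of several matches placed by guidance of unique ones. Window numbers were matched to the TAIR10.1 annotation.

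Counts were summed over the windows of each *MIR* gene or family and fitted together with all other windows by the edgeR 4.0.16 quasi-likelihood test in R 4.3.3, with genotype as the only factor, all 8 libraries and TMM normalization, within each length. Features needed at least 10 counts in at least 2 libraries. P-values were Benjamini-Hochberg adjusted over all features. Shares were compared by exact permutation in Python 3.11.15. The fits were tested on simulated data.

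The text names all 9 genes and their windows, *HOT3*, genes of the polarity list that passed the filter and the HD-ZIP III targets, and the 3 *MIR* genes most correlated with the family. The members and lists were chosen with earlier results of these data known. The arm sums, the 5p shares, the 22-nt to 21-nt ratios and the 19-nt class were added after the values had been seen. Alternatives were other library sizes, DESeq2 1.42.0, other filters, fits of only the genotypes compared, a replicate block, windows centered in the gene and leaving out each library.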

Additional observations from a re-analysis of the deposited data

Results flagged for a closer look

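Among 30 sets of 4 libraries (the alleles, or WT with HOT3-EYFP) checked for a library apart from the other 3, about 1 in 20 would be marked by chance, and 2 were. *MIR166c* in WT and HOT3-EYFP was marked for HOT3-EYFP replicate 2, with 22 counts of 21 nt against 185 to 230, a gap of 0.891 of the range on the log2 scale. *MIR166f* in the same libraries was marked for HOT3-EYFP replicate 1, with 0 counts against 27 to 58, a gap of 0.873. The 2 alleles differed from each other, by the test of *hot3-3* against *hot3-2*, in *MIR165a* (-0.26 on the log2 scale) and in the family sum (-0.20). At 25 nt, a length outside the comparisons, both libraries of each allele exceeded both of WT, at a mean of 8.84 reads of the family per 1000000 reads of that length in *hot3-2* and 10.7 in *hot3-3*. These rest on 3 to 5 reads per library in the alleles and on 1 and 3 in WT.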

How the results depend on the processing

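The family sum kept its direction under every alternative in 5 of the 6 comparisons. HOT3-EYFP against *hot3-2* turned to -0.25 with total counts as library size. Under that scaling the median of all features in the comparison was -0.61 on the log2 scale, beside -0.10 with TMM. HOT3-EYFP against WT missed the fold limit at -0.99 with nuclear counts outside rDNA. Leaving out each library gave -1.45 to -1.30 for *hot3-2*, -1.57 to -1.51 for *hot3-3* and -1.16 to -1.06 for HOT3-EYFP against WT, 0.15 to 0.30 for HOT3-EYFP against *hot3-2*, -0.21 to -0.11 for *hot3-3* against *hot3-2*, and -0.93 to -0.83 for the alleles against functional HOT3. With replicate number as a block, the changes against WT were -1.32, -1.52 and -1.07. The numbers do not pair the libraries (correlations of deviations from -0.0701 to 0.00996), and the block moved no count of calls past 1.5 times.

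With only an adjusted p under 0.05 asked for, called genes numbered 4, 5, 2, 1 and 5 in *hot3-2* and *hot3-3* against WT, HOT3-EYFP and *hot3-3* against *hot3-2*, and the alleles against functional HOT3, beside 2, 2, 0, 0 and 2. Without a filter they were 4 in *hot3-2*, 4 in *hot3-3*, 1 in HOT3-EYFP against *hot3-2* and 4 for the alleles. With total counts there was 1 in each of the last 2 comparisons. No share over all features is given for fits without a filter, with other library sizes or with a library left out. Those counts therefore show only how the calls moved. Leaving out a library gave 2 to 3 calls in each allele, 2 to 4 in HOT3-EYFP, 0 to 1 in HOT3-EYFP against *hot3-2* and 2 to 3 for the alleles. The difference in the *MIR165* share was 4.32 points with only windows centered in the gene (6.84 to 8.55 with libraries left out). That in the family share was -4.78 to -3.37 with libraries left out, with an exact p of 0.0857 whenever a library of the alleles was the one left out. The 20-nt share differed by -0.0396 with all 9 lengths as denominator and by -0.117 to 0.296 with libraries left out. The causes were not tested.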
